A study of Homo sapiens with 2 samples.

Results

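The expression of 4 regulators of apoptosis, MCL1, BIRC2, CASP8 and TNFRSF10B, was followed in HepG2 cells after knockdown of the noncoding transcript TUC338. HepG2 is a human hepatoma line. The cells were grown on collagen-coated plates and transfected with a locked nucleic acid oligonucleotide (LNA, a chemically stabilised antisense strand) against TUC338, or with a control LNA. RNA was measured on 1 exon array for TUC338 knockdown and 1 for Control, and the level of TUC338 itself was not analysed here, although the design text states that its knockdown had been checked by experiment. Every difference below compares 2 arrays, has no replicate check and was given no test. The 4 genes were chosen by name, with earlier results of these data known, so their ranks among all genes below are descriptions only. Every probe set annotated to a single one of them was used, which gave 55 of the 42575 probe sets with 1 gene symbol and 4 of 2792 genes. MCL1 had 12 probe sets, BIRC2 14, CASP8 13 and TNFRSF10B 16. A probe set covers an exon or a part of one, and the probe sets of a gene report on the same RNA of the same 2 cultures. Several can lie in the same exon, and their positions were not analysed here, so a count of probe sets is not a count of exons.

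Cells can enter apoptosis by 2 routes. In the mitochondrial route, proteins of the BCL2 family decide whether the outer membrane of the mitochondrion is opened. MCL1 is a short-lived member that keeps it closed. In the death receptor route, the ligand TRAIL binds receptors such as TNFRSF10B (also called DR5), which recruit and activate CASP8, the initiator caspase. BIRC2 (cIAP1) is a ubiquitin ligase of the inhibitor of apoptosis family that acts at receptor complexes, where it keeps RIPK1 in a form that promotes survival signalling. In mice, hepatocytes are known to depend on MCL1 for survival. MCL1 and BIRC2 are called the survival genes here, and CASP8 and TNFRSF10B the death receptor pathway genes.

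RefSeq promoter windows of GRCh38.p14, from 250 bases before to 50 after a gene start, are shown for BIRC2, a survival gene, and for CASP8, a death receptor pathway gene, the 2 of the 4 members matched in the sequence table, so that 1 gene of each role is seen. Capitals mark the cAMP response element TGACGTCA and the GC box GGGCGG. The BIRC2 window is chr11:102346964-102347263 and the CASP8 window chr2:201233213-201233512, both on the plus strand.
BIRC2: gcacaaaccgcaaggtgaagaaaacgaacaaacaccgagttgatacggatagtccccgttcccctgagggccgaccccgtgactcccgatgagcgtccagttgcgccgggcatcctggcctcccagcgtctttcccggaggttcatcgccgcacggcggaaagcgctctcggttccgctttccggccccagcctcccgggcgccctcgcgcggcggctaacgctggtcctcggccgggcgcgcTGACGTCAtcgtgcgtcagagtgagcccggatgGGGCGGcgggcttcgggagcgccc
CASP8: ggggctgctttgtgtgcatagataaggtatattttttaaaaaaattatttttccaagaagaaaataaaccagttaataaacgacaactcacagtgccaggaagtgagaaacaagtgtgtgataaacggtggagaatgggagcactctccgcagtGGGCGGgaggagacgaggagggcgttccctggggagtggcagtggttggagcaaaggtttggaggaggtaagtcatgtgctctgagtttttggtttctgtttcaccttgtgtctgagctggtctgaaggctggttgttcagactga
The BIRC2 window held TGACGTCA starting 7 bases before the gene start and a GC box starting at base 27 of the transcript. The CASP8 window held no TGACGTCA and 1 GC box, starting 96 bases before the gene start. Searched on both strands, TGACGTCA was found in 1.85% of 35116 RefSeq windows of this length and GGGCGG in 45.0%. The AP-1 motif TGANTCA, present in 7.71% of windows, was in neither printed window. A further BIRC2 window, whose gene start lies downstream, covered the same TGACGTCA, and 2 further CASP8 windows each held 1 TGANTCA. A match describes these letters only. Binding of a factor was not measured.

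The arrays differed in overall brightness. Over all 45200 probe sets, the median intensity was 507 in TUC338 knockdown and 422 in Control, and the median gene, by the mean of its probe sets, was higher by 0.28 (log2) on the TUC338 knockdown array. Differences called relative are given after subtraction of this 0.28, and those called deposited are not. The table held 2792 genes and lacked many of the genes listed below. The median gene and every share over all genes therefore refer to the genes in this table only. Over 2742 genes with at least 4 probe sets, the SD of the relative means from gene to gene was 0.30, and the probe sets of a gene scattered around their own mean with a pooled SD of 0.28. Of 13 hepatocyte markers, ALB, APOB, FGG and TF were in the table, with mean log2 intensities of 10.53 to 12.92 in TUC338 knockdown and 9.98 to 12.64 in Control. Of 12 leukocyte markers only LCP1 was in the table, at 7.55 and 7.30 on the TUC338 knockdown and Control arrays, and of 8 fibroblast and stellate markers COL1A1, PDGFRB and ACTA2 were, at 7.89 to 10.20 in TUC338 knockdown and 7.66 to 9.87 in Control. COL1A1 was lower by a relative -0.90 ± 0.33 (SD over 14 probe sets), PDGFRB lay at 0.22 and ACTA2 at 0.05. Their part in the results below was not tested. In RNA of whole cultures, fewer cells of a type and less RNA per cell cannot be told apart.

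MCL1 was the member with the largest difference. Its mean log2 intensity over 12 probe sets was 11.85 ± 0.94 in TUC338 knockdown and 10.85 ± 1.09 in Control (SD over probe sets). All 12 probe sets were brighter on the TUC338 knockdown array, as were 75.2% of all single-symbol probe sets, and the deposited mean difference was 1.01, or 2.01-fold. Relative to the median gene the difference was 0.72 ± 0.27 (SD over 12 probe sets), or 1.65-fold. Every MCL1 probe set lay above the median gene, as did every probe set of 6.1% of the 1804 genes with at least 10 probe sets. Among the 2742 genes with at least 4 probe sets, 26 including MCL1 had a relative mean as high or higher, which is 0.948%.

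The 12 MCL1 probe sets differed in brightness and in the size of the difference. Probe set 2434457 had an intensity of 7778 in TUC338 knockdown and 3449 in Control, and probe set 2434462, the brightest by its mean over both arrays, had 7357 in TUC338 knockdown and 4193 in Control. Their relative differences were 0.89 and 0.53. The smallest relative difference, 0.22, was at probe set 2434464, with intensities of 3793 in TUC338 knockdown and 2671 in Control.

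The largest MCL1 differences were at the dimmer of its probe sets, although all 12 reached the median level of all single-symbol probe sets, a log2 intensity of 8.84. Probe set 2434461 had an intensity of 1803 in TUC338 knockdown and 694 in Control, a relative difference of 1.09. Probe set 2434469 had 1838 in TUC338 knockdown and 724 in Control, and probe set 2434456, the dimmest of the gene, had 1278 in TUC338 knockdown and 515 in Control. These 3 were the MCL1 probe sets at least 2-fold higher relative to the median gene, which 0.707% of all single-symbol probe sets were. At a relative 1.5-fold, 8 of the 12 were higher, against 6.15% of all single-symbol probe sets. The mean was 0.58 over the 6 brightest and 0.87 over the 6 dimmest MCL1 probe sets, and the relative difference correlated with the level by a Pearson r of -0.58 over the 12, which share both arrays. Leaving out any 1 probe set kept the MCL1 mean between 0.69 and 0.77.

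**Figure D1:**
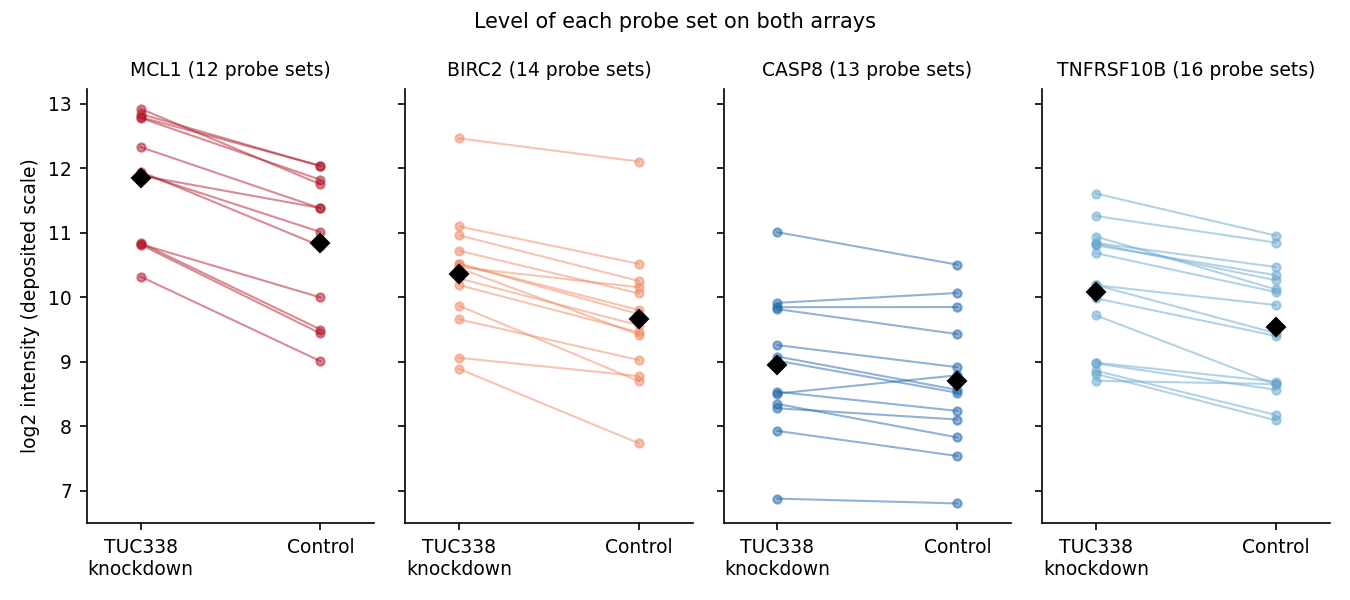
Log2 intensity of each probe set of the 4 genes in TUC338 knockdown (left of each panel) and Control (right), as deposited after conversion to log2; a line joins the values of 1 probe set and the black diamond is the mean. All 12 MCL1, 14 BIRC2 and 16 TNFRSF10B lines slope down towards Control, as do 10 of the 13 CASP8 lines and 75.2% of all single-symbol probe sets.

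BIRC2, the other survival gene, was also higher on the TUC338 knockdown array, by less than MCL1. Its mean log2 intensity over 14 probe sets was 10.37 ± 0.88 in TUC338 knockdown and 9.66 ± 1.02 in Control. The deposited mean difference was 0.70, or 1.63-fold, and the relative difference was 0.42 ± 0.28 (SD over 14 probe sets), or 1.34-fold. All 14 probe sets lay above the median gene, as did every probe set of 6.1% of the 1804 genes with at least 10 probe sets. At probe set 3346596, with intensities of 534 in TUC338 knockdown and 438 in Control, the relative difference was only 0.00065. Of the 2742 genes, 5.91% had a relative mean as high or higher, and 2.3% had one of at least 1.5-fold higher, which MCL1 passed and BIRC2 did not.

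In BIRC2, too, the dimmer probe sets had the larger differences on average, although 3346596, the next to dimmest, had the smallest of all. Its brightest, 3346601, had an intensity of 5653 in TUC338 knockdown and 4406 in Control and a relative difference of 0.08. Probe set 3346613 had 935 in TUC338 knockdown and 415 in Control, and probe set 3346590, the dimmest, had 474 in TUC338 knockdown and 213 in Control, with relative differences of 0.89 and 0.87. The third at or above 1.5-fold was 3346594, with 1400 in TUC338 knockdown and 684 in Control. Thus 3 of the 14 reached that fold, against 6.15% of all single-symbol probe sets. The mean was 0.30 over the 7 brightest and 0.54 over the 7 dimmest BIRC2 probe sets, with a Pearson r of -0.48 between difference and level over the 14. Leaving out any 1 probe set kept the BIRC2 mean between 0.38 and 0.45.

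CASP8, the initiator caspase, lay close to the median gene. Its mean log2 intensity over 13 probe sets was 8.95 ± 1.06 in TUC338 knockdown and 8.70 ± 1.06 in Control. The deposited mean difference was 0.25, which is about the offset between the arrays, and the relative difference was -0.03 ± 0.27 (SD over 13 probe sets), or 0.978-fold. Of the 13 probe sets 8 lay above the median gene, against 47.9% of all single-symbol probe sets, and none was 1.5-fold higher or lower, against 6.15% higher and 8.19% lower of all single-symbol probe sets. A relative mean as high or higher was found for 55.5% of the 2742 genes. Only 5 CASP8 probe sets reached the median level of all single-symbol probe sets, a log2 intensity of 8.84, so most of the gene was read at dim probe sets.

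The CASP8 probe sets scattered around their mean about as widely as those of MCL1 and of the pooled genes (SD of 0.27, 0.27 and 0.28), and with a mean near 0 they fell above and below the median gene. The brightest, 2522758, had an intensity of 2061 in TUC338 knockdown and 1453 in Control, a relative difference of 0.22. The next in brightness, 2522752, was dimmer in TUC338 knockdown, with 964 against 1072 in Control and a relative difference of -0.44. Probe set 2522733 had 920 in TUC338 knockdown and 922 in Control. The lowest relative difference of the gene, -0.57, was at probe set 2522769, with 363 in TUC338 knockdown and 442 in Control. At the other end, probe sets 2522750 and 2522753 reached 0.24 and 0.23. The sign of the CASP8 mean rested on single probe sets, with a range of -0.06 to 0.01 when each was left out in turn. The positions of the probe sets in the CASP8 transcripts were not analysed here.

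TNFRSF10B, the death receptor, lay between BIRC2 and CASP8. Its mean log2 intensity over 16 probe sets was 10.09 ± 0.97 in TUC338 knockdown and 9.54 ± 0.96 in Control. All 16 were brighter on the TUC338 knockdown array, as were 75.2% of all single-symbol probe sets, by a deposited mean of 0.55 or 1.46-fold, and 15 lay above the median gene, against 47.9% of all. The relative difference was 0.26 ± 0.24 (SD over 16 probe sets), or 1.20-fold, and 16.4% of the 2742 genes had one as high or higher. Only probe set 3127722 passed a relative 1.5-fold, 1 of 16 against 6.15% of all single-symbol probe sets, with an intensity of 843 in TUC338 knockdown and 401 in Control and a relative difference of 0.79.

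The brightest TNFRSF10B probe set, 3127704, had an intensity of 3123 in TUC338 knockdown and 1986 in Control, a relative difference of 0.37. The probe set below the median gene was 3127713, with 417 in TUC338 knockdown and 403 in Control and a relative difference of -0.23. Unlike the order seen in the survival genes, the 8 brightest and the 8 dimmest probe sets had similar means, 0.24 and 0.29, and the Pearson r with level was 0.05 over the 16. This contrast was not tested. Leaving out any 1 probe set kept the TNFRSF10B mean between 0.23 and 0.30.

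**Figure D2:**
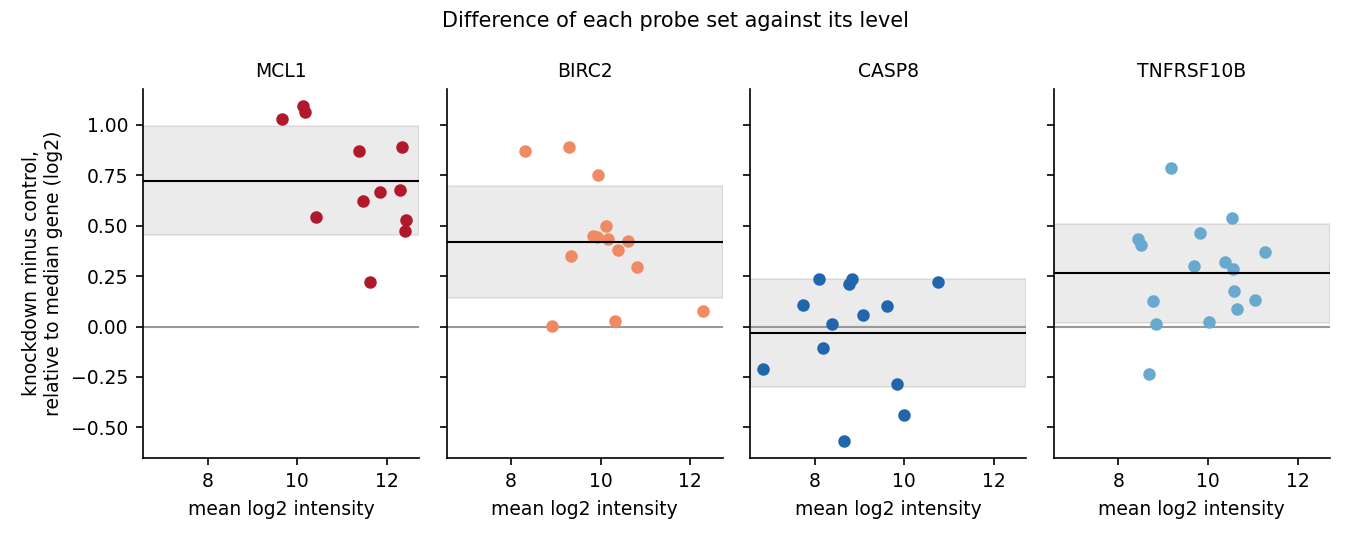
Knockdown minus control difference of each probe set relative to the median gene (log2, vertical axis) against its mean log2 intensity over both arrays (horizontal axis); the black line is the gene's mean and the band its SD over probe sets. The 3 dimmest MCL1 points lie highest in their panel, between 1.03 and 1.09, and the CASP8 points lie on both sides of 0.

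The survival genes were then set against the death receptor pathway genes. The mean of the 2 gene means was 0.57 for MCL1 and BIRC2 and 0.12 for CASP8 and TNFRSF10B, a difference of 0.46 (log2), or 1.37-fold. All 26 probe sets of the survival genes lay above the median gene, as did 23 of the 29 of the death receptor pathway genes and 47.9% of all single-symbol probe sets. At least 1.5-fold higher were 11 of the 26 survival probe sets and 1 of the 29 death receptor pathway probe sets, against 6.15% of all, so the count for the death receptor pathway genes was no higher than that share. The groups overlapped, with relative differences of 0.00065 to 1.09 for the survival genes and -0.57 to 0.79 for the death receptor pathway genes. In 637 of 754 pairs of 1 probe set from each group, the survival probe set had the larger difference. Each probe set enters many pairs and each group holds only 2 genes, so the pairs are not independent. Their count was not split by gene or set beside a share for other genes, and it does not measure how far the groups separate.

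The contrast between the groups was uneven across its genes. BIRC2 exceeded TNFRSF10B by 0.16, which is less than the SD over probe sets of either gene, while MCL1 exceeded CASP8 by 0.76. It also depended on which probe sets stood for a gene. With every gene in the table read at its brightest probe set, the median gene was higher by 0.20 instead of 0.28, so values in this setting lie above the relative differences given for the same probe sets earlier. Relative to that 0.20, the difference was 0.61 for MCL1, 0.16 for BIRC2, 0.31 for CASP8 and 0.45 for TNFRSF10B, and survival minus death receptor pathway was 0.0069. MCL1 had the largest value of the 4 under all 7 other settings tried, and BIRC2 came below TNFRSF10B and CASP8 only with the brightest probe set. The setting without centring shifts every gene by the same 0.28, and reading the deposited values as log2 scales every difference alike. Neither of these settings could change the order of the genes.

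**Figure D3:**
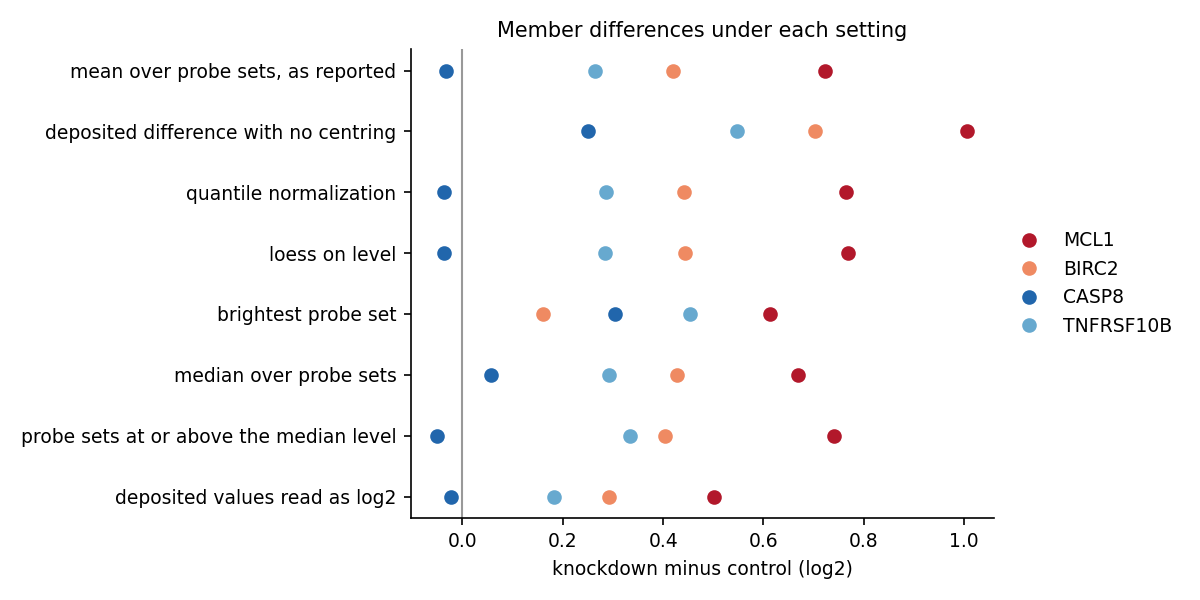
Knockdown minus control difference (log2, horizontal axis) of each of the 4 genes as reported and under the 7 other settings (rows). MCL1 is the point furthest right in every row, and the order of the other 3 turns in the row for the brightest probe set, where BIRC2 is lowest at 0.16 relative to a median gene of 0.20 at its brightest probe set. The rows for no centring and for values read as log2 could not change the order.

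Among all genes, MCL1 lay in the upper tail of the relative means, BIRC2 and TNFRSF10B on the upper shoulder and CASP8 at the centre. For each member, the 3 genes with at least 4 probe sets whose mean log2 intensities on the 2 arrays lay closest were found, by the sum of the absolute differences over both arrays. They were AARS1, GMDS and SLC7A5 for MCL1, at distances of 0.34 to 0.43. For BIRC2 they were AK3, SINHCAF and EIF2B2, at 0.08 to 0.11. For CASP8 they were SLC38A10, SCMH1 and TMEM53, at 0.0058 to 0.03, and for TNFRSF10B they were NDE1, SPOP and NFKBIA, at 0.06. A likeness over 2 arrays reflects brightness and 1 difference only. The relative differences of the 3 genes nearest MCL1 were 0.30 to 0.39, against 0.72 for MCL1. Those nearest BIRC2 had 0.38 to 0.49, against 0.42 for BIRC2. The match takes in the difference itself and MCL1 had the most distant neighbours of the 4, so this gap does not set MCL1 apart from genes of like brightness.

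**Figure D4:**
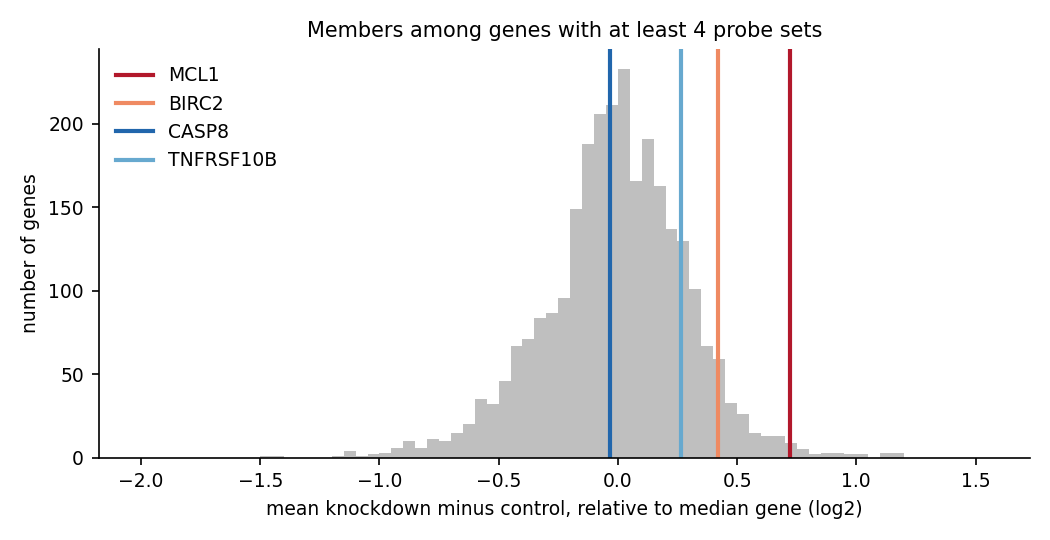
Number of genes (vertical axis) by mean knockdown minus control difference relative to the median gene (log2, horizontal axis) for the 2742 genes with at least 4 probe sets, with coloured lines at the 4 members. MCL1 at 0.72 lies in the upper tail and CASP8 at -0.03 near the centre.

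The other apoptosis genes in the table lay above and below the median gene in similar numbers. Lists of apoptosis proteins and their regulators named 122 genes, of which 27 were in the table, all with at least 4 probe sets. Without the 4 members, 10 of the remaining 23 lay above the median gene, none was 1.5-fold higher or lower, and their median was -0.0064, beside 0.0020 for the 2742 genes, of which 50.3% lay above the median gene. MCL1 was the only one of the 27 at least 1.5-fold higher, against 2.3% of the 2742 genes, so this count is near the share over all genes. At least 1.5-fold lower were none of the 27 and 3.57% of the 2742 genes. The counts of probe sets above the median gene given below for single genes stand beside 47.9% of all single-symbol probe sets.

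In the BCL2 family, BCL2L1, which encodes the survival protein BCL-XL, had mean log2 intensities of 11.14 in TUC338 knockdown and 10.57 in Control, a relative difference of 0.29 ± 0.28 with 5 of 7 probe sets above the median gene. BCL2L2 (BCL-W), also a survival protein, lay at -0.11 ± 0.33 over 8 probe sets. BAX, which forms pores in the mitochondrial outer membrane, lay at -0.0018 ± 0.37 over 9 probe sets. The median level of all single-symbol probe sets was reached by 6 of 7 probe sets for BCL2L1, 3 of 8 for BCL2L2 and 4 of 9 for BAX. The 10 listed BH3-only genes, whose products start the mitochondrial route, were not analysed here.

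Of the 7 listed genes of the inhibitor of apoptosis family, 4 were in the table, and 2 of them, BIRC2 and BIRC5, lay above the median gene, near the 50.3% of all genes that did. BIRC5 (survivin), which also acts in mitosis, had a relative difference of 0.14 ± 0.23 over 9 probe sets. BIRC6, a very large ubiquitin-conjugating member, had mean log2 intensities of 9.42 in TUC338 knockdown and 9.46 in Control, and lay at -0.32 ± 0.26 with 8 of 85 probe sets above the median gene. NAIP, a sensor of bacterial proteins in inflammasomes that has near-identical copies in the genome, lay at -0.44 ± 0.30 with 1 of 14 above it. Its mean log2 intensities were 7.65 in TUC338 knockdown and 7.80 in Control, and 13 of its 14 probe sets were below the median level.

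TNFRSF10A (DR4), the other death-inducing TRAIL receptor, had mean log2 intensities of 8.74 in TUC338 knockdown and 8.43 in Control and a relative difference of 0.03 ± 0.18 with 5 of 8 probe sets above the median gene. TNFRSF21 (DR6) had 10.12 in TUC338 knockdown and 10.24 in Control and lay at -0.41 ± 0.33, with 1 of 13 above it, against 15 of 16 for TNFRSF10B. Among regulators of receptor complexes, CYLD, a deubiquitinase that opposes survival signalling, lay at 0.14 ± 0.23 over 13 probe sets, and SHARPIN, a subunit of the linear ubiquitin ligase, at -0.13 ± 0.15 over 9. RIPK1, a kinase of these complexes, lay at -0.0064 ± 0.25 over 15 and TRAF3, an adaptor, at -0.04 ± 0.27 over 9. Several of these genes were read mostly at dim probe sets. The median level was reached by 2 of 8 for TNFRSF10A, 0 of 13 for CYLD, 2 of 15 for RIPK1 and 1 of 9 for TRAF3. It was reached by 12 of 13 for TNFRSF21 and 5 of 9 for SHARPIN.

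Downstream of the mitochondrion, AIFM1, a mitochondrial flavoprotein that can move to the nucleus in dying cells, lay at -0.43 ± 0.28 with 1 of 13 probe sets above the median gene, and APAF1, the scaffold of the apoptosome, at -0.22 ± 0.25 with 6 of 35. ROCK1, a kinase cleaved by caspases, lay at 0.22 ± 0.29 with 21 of 28, and PARP1, a DNA repair enzyme cleaved by caspases, at -0.06 ± 0.33. Of the genes that control the stability of the MCL1 protein, FBXW7, a ubiquitin ligase subunit that marks it for degradation, lay at 0.35 ± 0.34 with 16 of 18 probe sets above the median gene, and USP9X, a deubiquitinase that stabilises it, at 0.04 ± 0.21 with 25 of 48. The median level was reached by only 2 of the 18 FBXW7 probe sets, against 37 of 48 for USP9X. It was reached by 4 of 13 for AIFM1, 9 of 35 for APAF1, 8 of 28 for ROCK1 and 11 of 18 for PARP1. NFKBIA, the inhibitor of NF-kB, lay at 0.20 ± 0.21 with all of 5 above. Among p53 targets, PLK3, a stress kinase, lay at 0.50 ± 0.23 with all of 11 probe sets above the median gene, and TP53INP1, a p53-induced nuclear protein, at 0.43 ± 0.22 with all of 6. Every probe set lay above it for 6.1% of the 1804 genes with at least 10 probe sets. No such share was computed for genes with fewer, such as TP53INP1 and NFKBIA. In the same list DDB2 and SESN1 lay at -0.17 ± 0.23 and -0.14 ± 0.24. The median level was reached by 5 of 11 probe sets for PLK3, 4 of 6 for TP53INP1, 7 of 9 for DDB2 and 4 of 12 for SESN1.

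**Figure D5:**
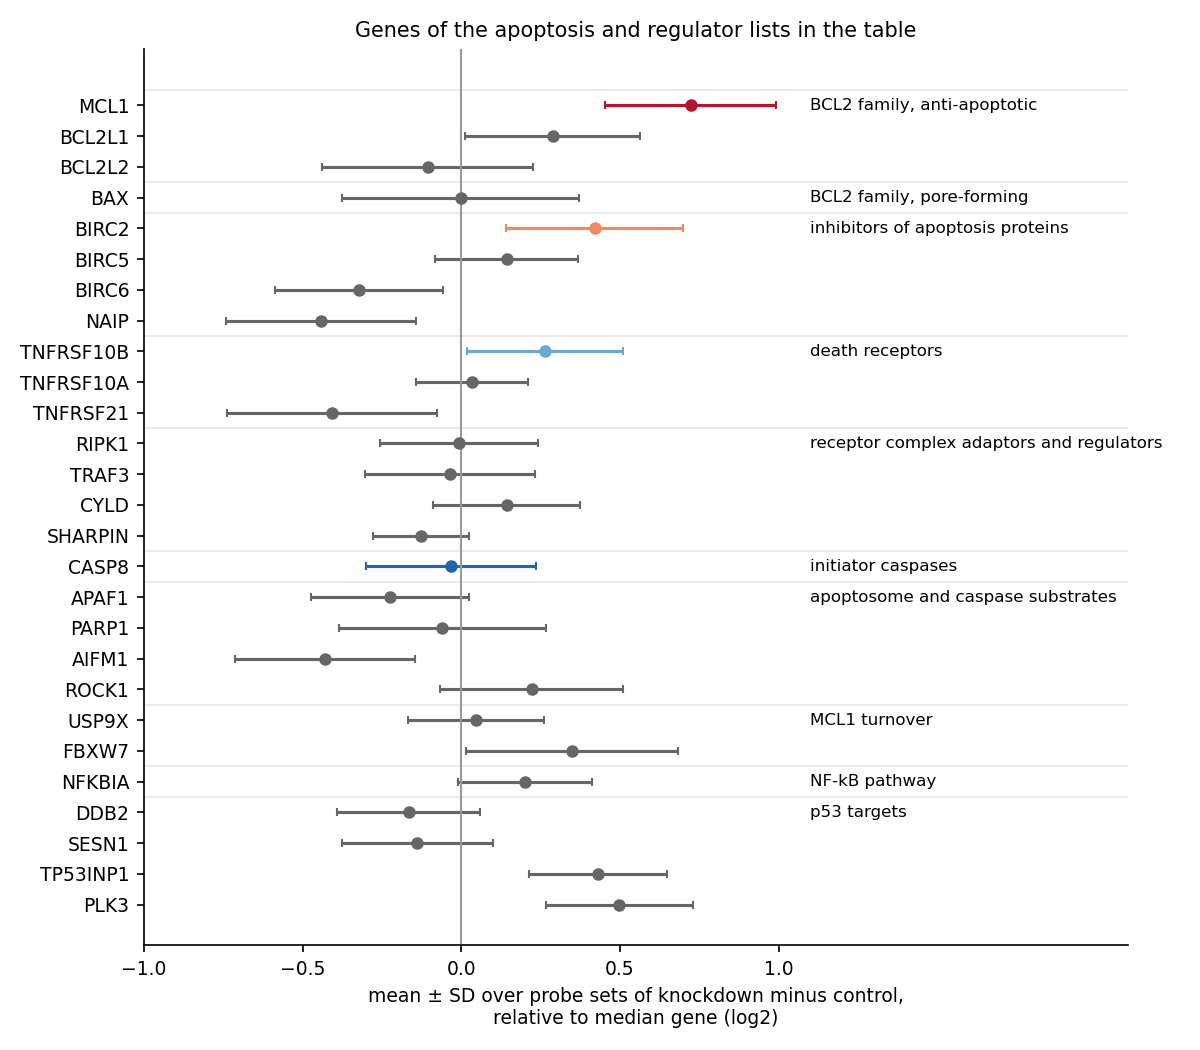
Mean knockdown minus control difference relative to the median gene (log2, horizontal axis) of the 27 genes of the apoptosis and regulator lists, with bars for the SD over probe sets; rows are grouped by list and the 4 members are coloured. MCL1 at 0.72 lies furthest right, with PLK3, TP53INP1 and BIRC2 next, and NAIP, AIFM1 and TNFRSF21 lie furthest left.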

How the data were processed

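Values for 45200 probe sets on 2 arrays were used. They were deposited as log values of unstated base, normalization and software. Per the labels, RNA was amplified and labelled with a whole-transcript kit. The deposited values were treated as natural log intensities: with exponentials under 2000 placed by their residue modulo 0.5 in bins of width 0.001, the fullest bin held 1154 of 41367 values in TUC338 knockdown and 1167 of 42089 in Control (means of 82.7 and 84.2 per bin), against 117 and 115 (mean of 90.4) when read as log2. They were divided by the natural log of 2. Platform annotation gave 1 symbol to 42575 probe sets, updated through RefSeq. No genome build was found for the probe sets, and their positions were not analysed here.

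The difference of a gene is the mean over its probe sets of knockdown minus control, less the median over genes. With 1 array per group no test was possible, a 1.5-fold difference stood in for a call, and the SD over probe sets does not replace replicate cultures. The number of arrays limits the precision. The members and gene lists were chosen with earlier results of these data known. Genes named outside the members are the list genes and cell type markers found among the genes measured. The 3 genes nearest each member in mean log2 intensity on both arrays are named as well. The procedure was checked on simulated data. Python 3.11.15, pandas 2.3.3 and statsmodels 0.14.6 (loess, span 0.3) were used.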

Additional observations from a re-analysis of the deposited data

How the results depend on the processing

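No paired analysis was possible because each group has 1 array and no result comes from a test. Under 7 alternative settings the difference stayed above 0 for MCL1 (0.50 to 1.01), BIRC2 (0.16 to 0.70) and TNFRSF10B (0.18 to 0.55), while CASP8 ranged from -0.05 to 0.31. The settings with no centring and with values read as log2 could not have turned a difference above 0 to below it. The first adds the same offset to every gene and the second scales every difference alike. The upper ends for MCL1, BIRC2 and TNFRSF10B are deposited differences, from the setting with no centring, and not relative ones. Survival minus death receptor pathway ranged from 0.0069 to 0.48. With no centring the members were at 1.01, 0.70, 0.25 and 0.55 for MCL1, BIRC2, CASP8 and TNFRSF10B, since the offset of 0.28 between the arrays is kept. That setting counted 359 genes higher and 25 lower by 1.5-fold, against 63 and 98 as reported, and 5 of the 27 listed genes higher, against 1. With the brightest probe set, relative to a median gene of 0.20 in that setting, CASP8 was at 0.31, survival minus death receptor pathway at 0.0069, and 144 genes were higher and 188 lower, with 1 listed gene lower. The gene is then read at a single probe set. Read as log2, the deposited values gave 16 genes higher and 29 lower and 0 listed genes higher, because every difference shrinks. Quantile normalization, loess, the median over probe sets and the restriction to brighter probe sets moved no member by more than its SD over probe sets. The restriction kept all 12 probe sets of MCL1 and 13 of 14 of BIRC2, against 5 of 13 of CASP8 and 11 of 16 of TNFRSF10B. For MCL1 it therefore changed only the median gene, and it says little about the survival genes. CASP8 turned to 0.06 with the median over probe sets. Signal over background could not be assessed, because no background probes were analysed here.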
